A study of Mus musculus with 13 samples.

Results

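The genes described here encode subunits of voltage-gated and related ion channels of the left ventricle (LV). Probes were chosen by the gene symbol of the array platform: symbols beginning with Kcn (potassium channels), Scn with a number and a or b (sodium channels), Cacna, Cacnb or Cacng (calcium channels), Hcn (pacemaker channels) or Clcn (chloride channels and exchangers), with Scn4b left out. This gave 176 of 25697 probes, for 115 of 16593 genes. A gene was counted as measured when at least 1 of its probes had a detection p-value under 0.01 on at least 3 of the 13 arrays, which held for 37 probes and 30 genes, against 7837 measured genes in all.

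Each cardiac action potential is shaped by channels that open and close in turn. Sodium current gives the upstroke, L-type calcium current holds the plateau and triggers contraction, and several potassium currents repolarize the cell. In mouse ventricle the transient outward current, carried by Kv4 pore subunits with the accessory subunit KChIP2, dominates early repolarization. Inward rectifiers set the resting potential, two-pore-domain channels carry background potassium current, and HCN channels carry the depolarizing pacemaker current. Loss of potassium channel transcripts is a known feature of hypertrophied ventricle.

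LV RNA was profiled on Illumina mouse BeadChips from male C57BL/6 mice aged 4 months, 5 weeks after transverse aortic constriction (TAC), which loads the ventricle with pressure, or after sham surgery. LXRα-Tg mice carry murine LXRα (the nuclear receptor gene Nr1h3) under the αMHC promoter, which is active in cardiomyocytes, and Wt littermates carry no transgene. The line was founded in FVB oocytes and backcrossed to C57BL/6. The sham groups had 3 arrays for Wt and 3 for LXRα-Tg, the TAC groups 4 for Wt and 3 for LXRα-Tg, numbered within each group. Whether the arrays of a group come from separate mice is not stated, and the p-values cover only the variation from array to array.

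The labels were first set against the data. Nr1h3 had a signal of 163.2 to 396.7 on 8 arrays and of 25186.7 to 31975.4 on 5. It went against the genotype label on 5 of the 13 arrays. The signal was high on Wt TAC replicate 2 and Wt sham replicate 3, and it was low on LXRα-Tg TAC replicate 3 and on both replicate 1 and replicate 2 of LXRα-Tg sham. Eif2s3y, a Y-linked gene, was not well above background on Wt sham replicate 1 and LXRα-Tg TAC replicate 3 although all arrays are labelled male. Wt sham replicate 3 also had kidney transcripts, with 12 of 20 listed kidney genes detected against 2 to 9 on the other arrays. Liver transcripts were high on the same array, with a summed signal of 15432.9 over the listed liver genes, and on LXRα-Tg TAC replicate 1 (14419.8) and Wt TAC replicate 4 (7828.4), against 882.7 to 4772 on the other arrays. Groups are named as labelled throughout, whatever their Nr1h3 signal. For the genes with the lowest p-values in a comparison, a change that moved by over 1.5 times without the 5 arrays with Nr1h3 against the label, or without the 2 arrays lacking Eif2s3y, is given beside the result. Leaving out the 5 arrays leaves only replicate 3 of LXRα-Tg sham. Every value without them that uses the LXRα-Tg sham group therefore rests on 1 array of it. Between 22 and 29 of the 115 channel genes were detected on each array.

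Detection differed between channel families. Of 7 sodium channel genes none was measured, and Scn10a was detected on 1 array only. Calcium channels contributed 3 of 7 pore subunit genes (Cacna1d, Cacna1g and Cacna1h) and 4 of 13 auxiliary genes (Cacna2d1, Cacnb1, Cacnb2 and Cacnb4). Potassium channels contributed 6 of 32 Kv pore genes, 5 of 13 Kv auxiliary genes, 5 of 12 inward rectifiers, 3 of 13 two-pore-domain genes and 1 of 10 genes of calcium- or sodium-activated channels (Kcnn1). Hcn2, 1 of 2 pacemaker channel genes, and Clcn3 and Clcn7, 2 of 6 chloride genes, made up the rest. Several channel genes gave no usable signal. Cacna1c, the pore of the L-type channel, was detected on 0 of 13 arrays by any of its 4 probes (highest signal 17.8). Kcnd3, Kcna4, Kcnj5, Scn7a, Scn2b, Scn3b and Scn8a were likewise detected on 0 arrays. A transcript can be present where its probe fails, and no absence was read from these values.

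**Figure D1:**
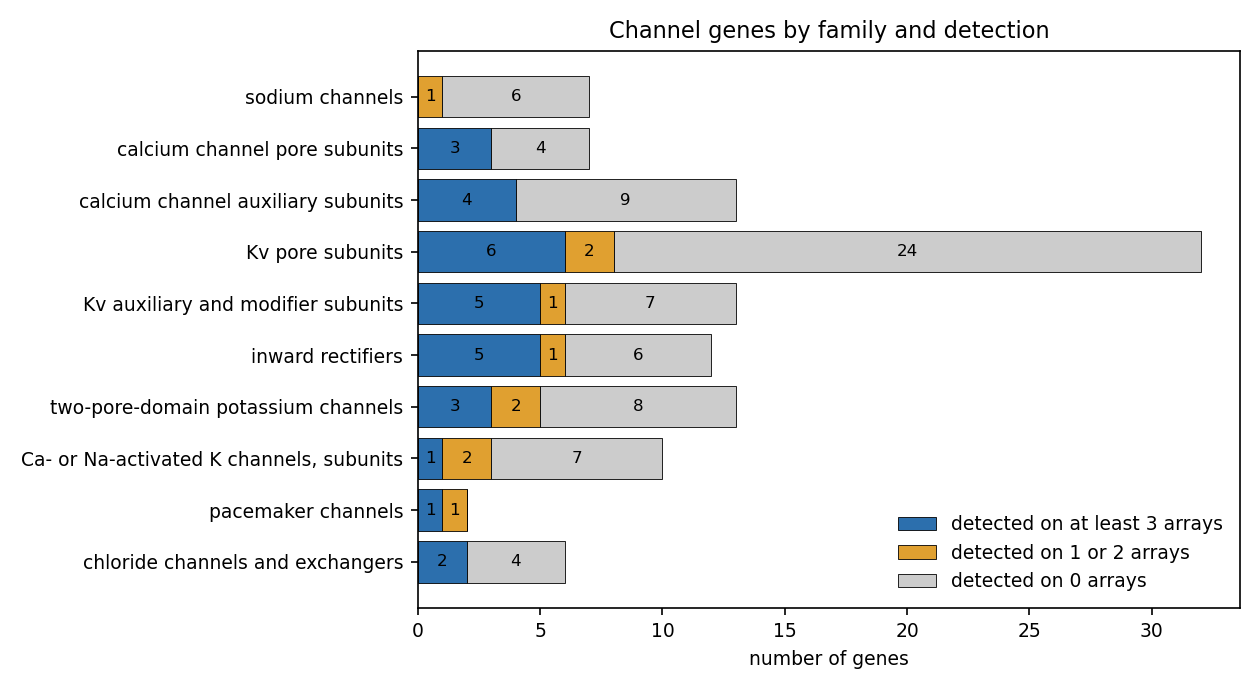
Number of channel genes in each family (horizontal axis, genes), split by whether a probe was detected on at least 3 arrays (blue), on 1 or 2 arrays (orange) or on 0 arrays (grey). Of 115 genes, 30 were measured, 10 were detected on 1 or 2 arrays and 75 on 0.

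The 10 genes detected on 1 or 2 arrays were Hcn3, Kcna7, Kcne2, Kcnh1, Kcnj15, Kcnk1, Kcnk5, Kcnmb1, Kcnmb4 and Scn10a. The highest signal among them was 32.8 for Kcnk5, a two-pore-domain channel known from kidney epithelium, on Wt sham replicate 3. Kcnj15, an inward rectifier also known from kidney, had its highest signal (22.5) on the same array, which is the one with the most kidney transcripts, but it was also detected on LXRα-Tg TAC replicate 2, where 4 of 20 kidney genes were. Hcn3 was detected on Wt sham replicate 3 and LXRα-Tg sham replicate 2. Of the 30 measured genes, 18 were detected on all 13 arrays and 4 on 3 to 5 arrays.

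Promoter sequence from RefSeq (GRCm38.p6) was held for 23 of the 30 measured genes, 38 promoters in all. The 250 bases before the start of 4 repolarization and pacemaker genes that were lower in LXRα-Tg sham at an unadjusted p are shown, because they are the members the main comparison turns on. Capitals mark the GC box GGGCGG on either strand, the element bound by Sp1-type factors.
Kcnip2 promoter: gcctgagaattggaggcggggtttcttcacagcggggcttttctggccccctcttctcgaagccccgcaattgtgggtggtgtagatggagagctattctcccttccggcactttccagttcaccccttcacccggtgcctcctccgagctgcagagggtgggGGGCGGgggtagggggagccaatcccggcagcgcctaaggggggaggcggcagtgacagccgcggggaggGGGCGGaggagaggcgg
Kcnd2 promoter: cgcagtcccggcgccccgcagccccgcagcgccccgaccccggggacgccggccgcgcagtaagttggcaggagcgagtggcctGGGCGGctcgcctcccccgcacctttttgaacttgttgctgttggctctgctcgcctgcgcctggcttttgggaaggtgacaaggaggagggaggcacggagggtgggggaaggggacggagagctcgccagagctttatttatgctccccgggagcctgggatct
Kcnh2 promoter: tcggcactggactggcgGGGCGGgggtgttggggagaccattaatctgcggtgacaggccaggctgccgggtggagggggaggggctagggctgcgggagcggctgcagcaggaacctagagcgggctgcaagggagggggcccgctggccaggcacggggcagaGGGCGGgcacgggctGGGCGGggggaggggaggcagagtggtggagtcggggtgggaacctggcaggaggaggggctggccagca
Hcn2 promoter: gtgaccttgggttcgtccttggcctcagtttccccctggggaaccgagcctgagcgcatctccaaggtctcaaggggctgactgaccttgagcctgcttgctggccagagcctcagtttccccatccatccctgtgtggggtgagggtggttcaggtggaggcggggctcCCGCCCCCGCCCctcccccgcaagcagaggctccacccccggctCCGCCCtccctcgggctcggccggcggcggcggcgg
These lie at chr19:45816064-45816313 (minus strand), chr6:21215096-21215345 (plus), chr5:24329592-24329841 (minus) and chr10:79716384-79716633 (plus). Kcnip2 held 2 GC boxes, Kcnd2 1, Kcnh2 3 and Hcn2 3. Over all channel promoters the GC box occurred in 17 of 38 (44.7%), against 32.7% of 32851 promoters of the same length. The E-box CANNTG occurred in 71.1% of channel promoters and 66.2% of all, and the NKX2-5 motif TNAAGTG in 7.89% and 10.1%. The direct repeat LXR DR4 (by name alone, 2 half-sites AGGTCA with 4 bases between) occurred in 0 of 38 and in 0.0152% of all. The GATA motif AGATAA was in 0 of 38, against 9.99% of all. These letter matches describe the windows only.

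The first comparison, LXRα-Tg sham against Wt sham, asks how hearts labelled with the 2 genotypes differ without pressure overload. Nr1h3 was high on 1 of 3 arrays in either group, so the contrast is one of labels and not of Nr1h3 level. Levels are log2 values after background correction and quantile normalization with an offset of 16, so low levels understate a change. No channel gene passed an adjusted p of 0.05 by limma, while 124 of 7837 genes did (1.58%). At an unadjusted p under 0.05 there were 9 channel genes, 2 higher and 7 lower, where 16.1% of all genes passed, 9.34% higher and 6.74% lower. The 7 lower genes were Kcnip2, Kcnv2, Kcnd2, Kcnh2, Hcn2, Kcnk3 and Cacna1d, which include the Kv4 pore and its KChIP2 subunit, the ERG pore and the main ventricular HCN gene. The median change of the 30 genes was -0.09 against -0.01 for all genes, and 18 of the 30 were below 0 (51.2% of all genes were). Without the 5 arrays with Nr1h3 against the label, and so with 1 LXRα-Tg sham array, the channel median turned to 0.12 (all genes 0.03). It was -0.12 without the arrays lacking Eif2s3y. The 7 lower genes became 2 without Wt sham replicate 1, 4 without any 1 of the LXRα-Tg sham arrays, and 1 under median scaling, which moved the median of all genes to 0.15. In either direction 11.3% of all genes passed without Wt sham replicate 1. Without an LXRα-Tg sham array 11.1% to 16% did, and under median scaling 16.6%.

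**Figure D2:**
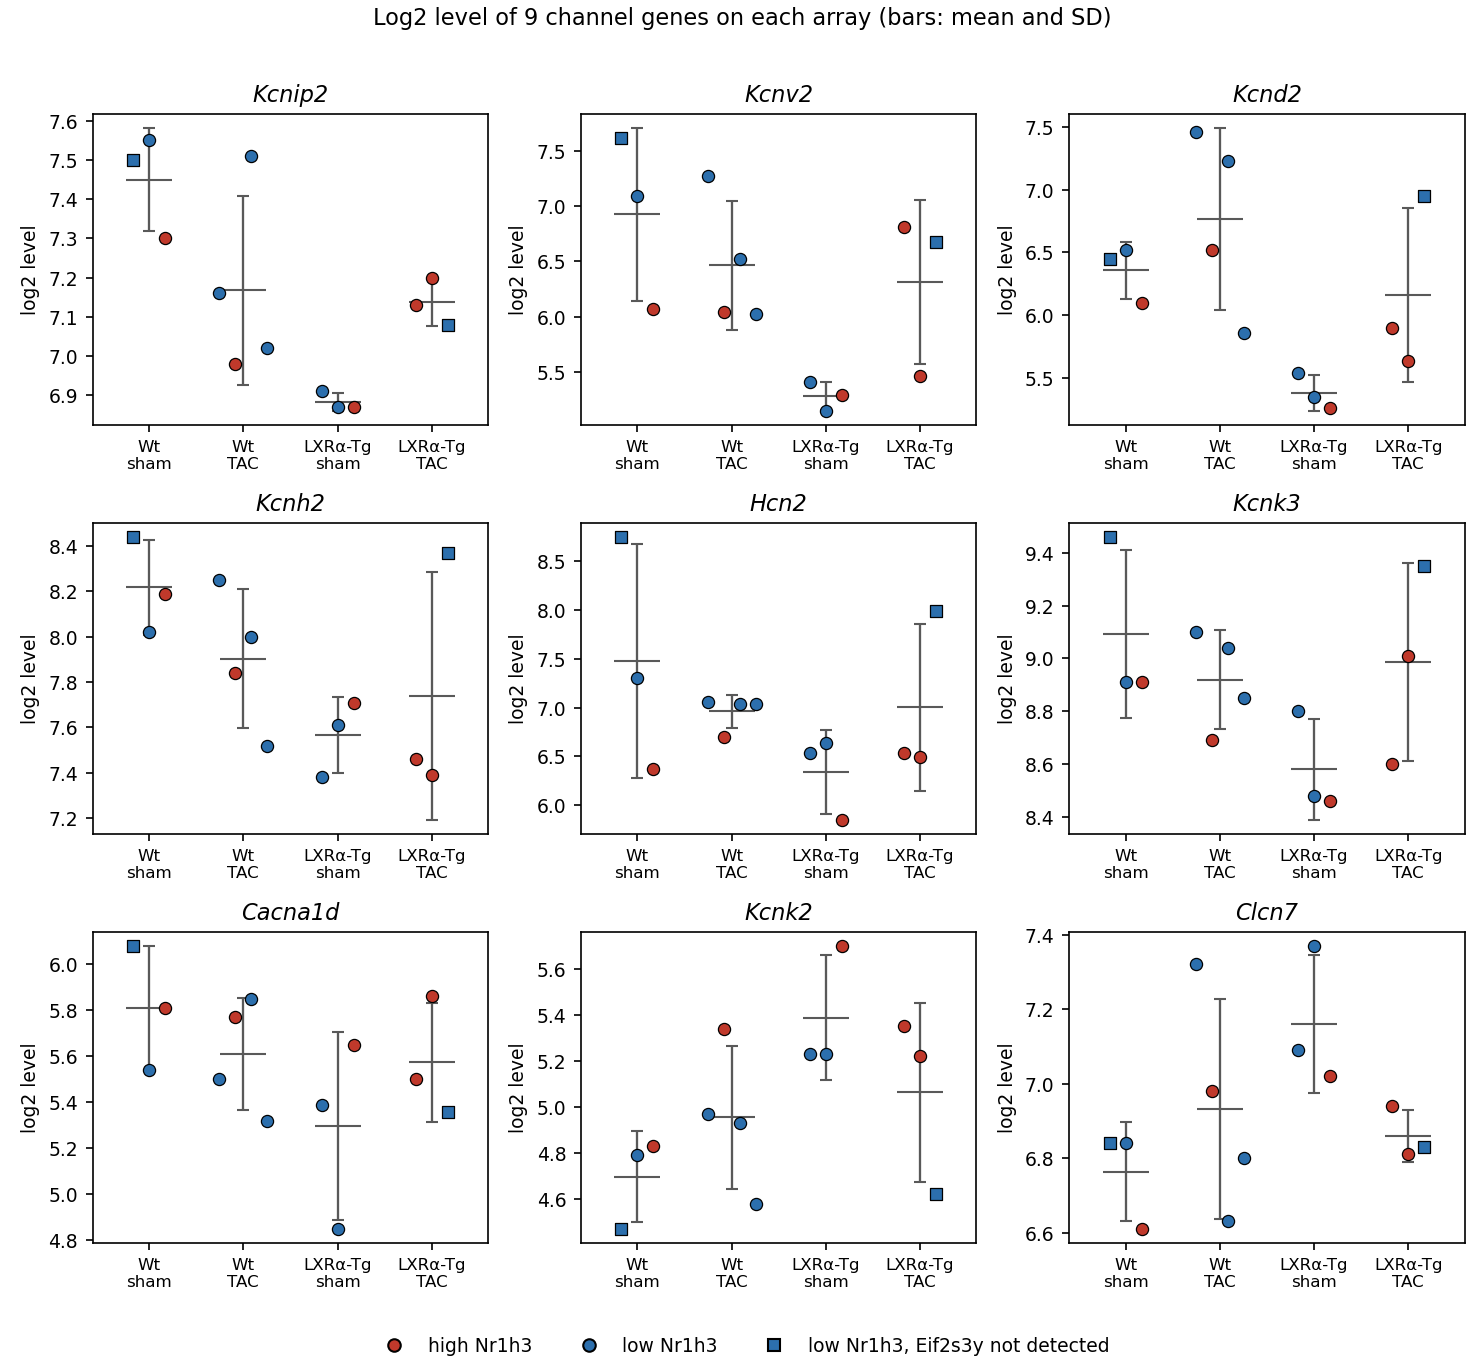
Log2 level (vertical axis) of 9 channel genes on each of the 13 arrays, by labelled group, with the mean and SD as bars. Red points are arrays with high Nr1h3, blue points low Nr1h3, and squares are the 2 arrays on which Eif2s3y was not detected. Kcnip2 lay between 6.87 and 6.91 on the 3 LXRα-Tg sham arrays and between 7.30 and 7.55 on the 3 Wt sham arrays.

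Kcnip2, which encodes KChIP2, had the lowest p of the channel genes. Its level was 7.50, 7.55 and 7.30 on the 3 Wt sham arrays and 6.91, 6.87 and 6.87 on the 3 LXRα-Tg sham arrays. The groups did not overlap, and the change was -0.57 (SE 0.14, 95% interval -0.88 to -0.26, limma adjusted p = 0.0711), a level 0.674 times that of Wt sham. Its 2 other probes that passed the filter gave -0.34 (detected on 8 arrays) and 0.06 (on 6), so the size depends on the probe. With slide as a term the change was -0.57, on slide 1 alone -0.62 and on slide 2 alone -0.43.

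Kcnd2 encodes Kv4.2, the pore subunit that KChIP2 accompanies. Its level was 6.45, 6.52 and 6.10 in Wt sham and 5.54, 5.35 and 5.26 in LXRα-Tg sham, with no overlap. The change was -0.97 (SE 0.39, interval -1.81 to -0.14, limma adjusted p = 0.233), or 0.509 times Wt sham. It was -0.93 without Wt sham replicate 1 and -1.22 without the 5 arrays on which Nr1h3 went against the label.

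Kcnv2 encodes Kv8.2, an electrically silent subunit that modifies other Kv channels. Its level was 7.61, 7.09 and 6.07 in Wt sham and 5.41, 5.15 and 5.29 in LXRα-Tg sham. The lowest Wt sham array still lay above all 3 LXRα-Tg sham arrays, and the change, -1.64 (SE 0.43, interval -2.57 to -0.70, limma adjusted p = 0.0821), was the furthest from 0 of the 30 genes. Without Wt sham replicate 3, the array with kidney transcripts, it was -2.07 with adjusted p = 0.0414 by limma, and on slide 2 alone -0.85.

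Kcnh2, the ERG pore of the rapid delayed rectifier, had levels of 8.44, 8.02 and 8.19 in Wt sham and 7.38, 7.61 and 7.71 in LXRα-Tg sham. The groups did not overlap, and the change was -0.65 (SE 0.25, limma adjusted p = 0.22). A second probe of the gene, detected on 13 arrays, gave -0.54.

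Hcn2, the pacemaker channel gene measured here, had levels of 8.75, 7.30 and 6.37 in Wt sham and 6.53, 6.64 and 5.85 in LXRα-Tg sham. The groups overlapped, and the spread in Wt sham was wide (SD 1.20). The change of -1.13 (SE 0.51, interval -2.23 to -0.03, limma adjusted p = 0.294) was -0.50 without Wt sham replicate 1, the array without Eif2s3y, and -2.17 without the 5 arrays with Nr1h3 against the label. On slide 2 alone it was -0.12.

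Kcnk3, the TASK-1 background channel, was at 9.46, 8.91 and 8.91 in Wt sham and 8.80, 8.48 and 8.46 in LXRα-Tg sham, a change of -0.52 (SE 0.21, limma adjusted p = 0.243). Cacna1d, the Cav1.3 pore best known from atria and sinoatrial node, was at 6.08, 5.54 and 5.81 in Wt sham and 5.39, 4.85 and 5.65 in LXRα-Tg sham, a change of -0.51 (SE 0.22, limma adjusted p = 0.284). The Kcnk3 groups did not overlap and the Cacna1d groups did, and on LXRα-Tg sham replicate 2 Cacna1d was not detected. On slide 1 alone and slide 2 alone Kcnk3 changed by -0.39 and -0.45. Without the arrays lacking Eif2s3y Kcnk3 was at -0.33, and without the 5 arrays with Nr1h3 against the label Cacna1d was at -0.16.

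The 2 genes that were higher at an unadjusted p are Kcnk2 and Clcn7. Kcnk2, the mechanosensitive TREK-1 channel, was not well above background on any Wt sham array (levels 4.47, 4.79 and 4.83) and was detected on all 3 LXRα-Tg sham arrays (5.23, 5.23 and 5.70), at least 1.15-fold higher with a limma adjusted p of 0.153. Clcn7, a chloride-proton exchanger of lysosomes, was at 6.84, 6.84 and 6.61 in Wt sham and 7.09, 7.37 and 7.02 in LXRα-Tg sham, a change of 0.39 (SE 0.17, limma adjusted p = 0.278). Neither pair of groups overlapped. Without the 5 arrays with Nr1h3 against the label Clcn7 was at 0.17, and the fitted change of Kcnk2, which depends on the offset, was 1.07 in place of 0.69. Over all 30 genes, groups did not overlap for 2 higher and 6 lower (11.0% and 9.40% of all genes), Kcnj12 being the sixth lower gene.

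The remaining genes did not pass an unadjusted p of 0.05. Of the calcium auxiliary genes, Cacnb1 was at 0.42 and Cacnb2 at -0.35, with 0 of 4 at an unadjusted p under 0.05. Among the inward rectifiers, Kcnj12, one of the Kir2 pores behind the classical inward rectifier current, changed by -0.49 (SE 0.25, limma adjusted p = 0.375), while Kcnj2, Kcnj3 and Kcnj8 lay between -0.06 and 0.05. Kcnq1, the pore of the slow delayed rectifier, changed by -0.27 and its partner Kcne1 by -0.24, with a wide interval of -1.45 to 0.97. Kcna5, the Kv1.5 pore detected on 5 arrays, changed by -0.13, and Clcn3 by -0.44 (SE 0.22, limma adjusted p = 0.349). Cacna1g and Cacna1h, the T-type pores, changed by 0.26 and 0.06. The rest were Kcne4 (0.35), Kcnab2 (0.34), Cacnb4 (0.11), Kcnn1 (-0.07), Cacna2d1 (-0.22), Kcnk6 (0.19, but -0.11 by its other probe) and Kcnab1 (-0.04, but 0.27 by its other probe).

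Marker genes of several cell types also differed between the sham groups. In whole tissue fewer cells of a type and less RNA per cell cannot be told apart. The mean log2 level of 9 ventricular cardiomyocyte markers was 12.61 to 12.81 in Wt sham and 12.54 to 12.60 in LXRα-Tg sham. That of 9 atrial markers was 6.43 to 8.13 against 8.35 to 8.43, of 8 macrophage markers 7.78 to 8.14 against 8.41 to 8.68 and of 9 fibroblast markers 8.19 to 8.42 against 8.77 to 9.19. All 4 lists therefore split the sham groups without overlap, the ventricular one only narrowly (12.61 against 12.60). Of 9 ventricular markers 3 were above 0 (range -0.74 to 0.23), and of 9 atrial markers 6 (range -0.80 to 3.24). All 8 macrophage and all 9 fibroblast markers were above 0. Conduction system markers, 3 of 10 measured, ranged from 7.30 to 7.75 in Wt sham and from 7.59 to 7.70 in LXRα-Tg sham. Of 15 measured liver markers 0 were above 0 in this comparison (median -1.17), and of 9 kidney markers 1 (median -0.89). The part of these values in the channel results was not tested.

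**Figure D3:**
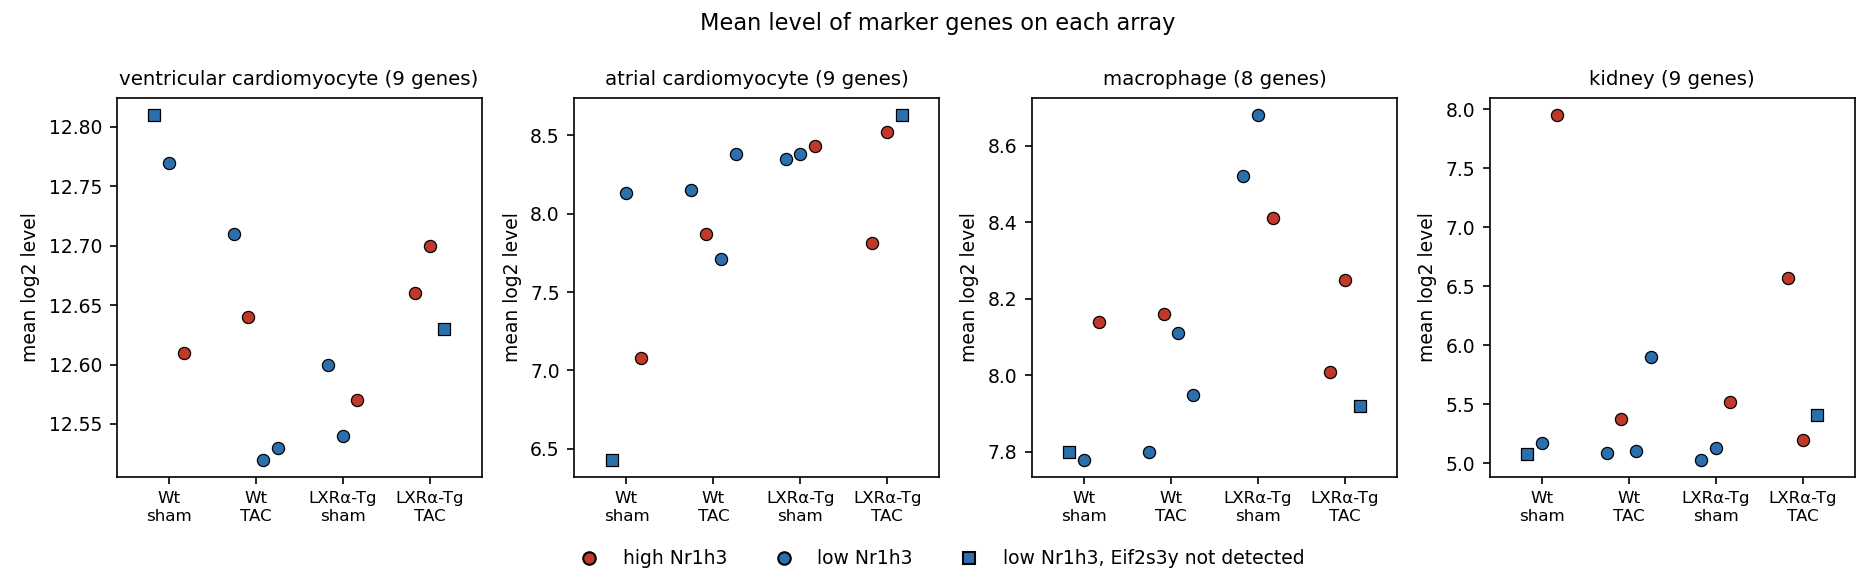
Mean log2 level (vertical axis) of 4 marker lists on each array, by labelled group; colours and shapes mark Nr1h3 and Eif2s3y as stated in the key. The 3 LXRα-Tg sham arrays lie at 8.41 to 8.68 for macrophage markers, above the 3 Wt sham arrays at 7.78 to 8.14.

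The second comparison, Wt TAC against Wt sham, asks what differs after pressure overload in mice labelled Wt, and it shares the 3 Wt sham arrays with the first. Nr1h3 was high on 1 of 4 Wt TAC and 1 of 3 Wt sham arrays. No gene of the 7837 passed the adjusted threshold by limma (0%), and 1 channel gene, Cacna2d1, was higher at an unadjusted p under 0.05, where 6.88% of all genes passed, 4.75% higher and 2.13% lower. Cacna2d1 encodes the α2δ-1 subunit that carries calcium channels to the membrane. Its level was 9.59, 9.30 and 9.22 in Wt sham and 10.27, 9.99, 10.03 and 9.49 in Wt TAC, which overlap, a change of 0.57 (SE 0.24, interval 0.05 to 1.09, limma adjusted p = 0.672). The next lowest p-values were Kcnip2 (-0.29, SE 0.14, limma adjusted p = 0.725), Kcnj8, the Kir6.1 pore of vascular ATP-sensitive channels (0.32, SE 0.21), and Kcnh2 (-0.31, SE 0.24). Without the 5 arrays with Nr1h3 against the label Kcnj8 was at 0.60, and without the arrays lacking Eif2s3y it was at 0.21 and Kcnh2 at -0.20. Kcnd2 changed by 0.41 (interval -0.38 to 1.19) and Hcn2 by -0.52 (interval -1.54 to 0.51). The groups overlapped for all 30 genes, while 4.41% of all genes lay wholly higher and 2.87% wholly lower. The median was -0.02 against 0.02 for all genes, and 17 of 30 genes were below 0 (46.9% of all genes). The channel median turned to 0.04 without the arrays with Nr1h3 against the label and to 0.09 without those lacking Eif2s3y. No channel gene was higher at an unadjusted p without Wt sham replicate 2, Wt sham replicate 3, Wt TAC replicate 1 or Wt TAC replicate 3, and 4 were lower without Wt sham replicate 3. Without that array 7.22% of all genes passed in either direction, and 5.55% to 7.29% without any 1 of the others. Of the marker lists, 0 of 9 ventricular cardiomyocyte genes (median -0.13) and 0 of 15 liver genes (median -1.70) were above 0, and their part in the channel values was not tested.

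The next comparison, LXRα-Tg TAC against LXRα-Tg sham, asks the same in mice labelled LXRα-Tg, with the 3 LXRα-Tg sham arrays that the first comparison also used. Nr1h3 was low on 2 of 3 of these and on 1 of 3 LXRα-Tg TAC arrays. By limma no gene of 7837 passed the adjusted threshold (0%). At an unadjusted p under 0.05 there was 1 channel gene, Kcnv2, and it was higher, where 7.04% of all genes passed, 3.10% higher and 3.94% lower. Kcnv2 was at 5.41, 5.15 and 5.29 in LXRα-Tg sham and at 6.81, 5.46 and 6.67 in LXRα-Tg TAC, so every TAC array lay above the sham arrays, by 1.03 (SE 0.43, interval 0.10 to 1.96, limma adjusted p = 0.671). Kcnd2 was at 5.54, 5.35 and 5.26 against 5.90, 5.64 and 6.95, a change of 0.78 (SE 0.39, limma adjusted p = 0.695). The highest Kcnd2 value was on LXRα-Tg TAC replicate 3, where Nr1h3 was low and Eif2s3y not detected, and the change was 0.38 without that array and 0.51 without the 5 arrays with Nr1h3 against the label. Kcnip2 was at 6.91, 6.87 and 6.87 against 7.13, 7.20 and 7.08, a change of 0.26 (SE 0.14, limma adjusted p = 0.726). In all, 3 genes lay wholly higher and 2 wholly lower (Clcn7 and Cacnb4), against 5.75% and 6.33% of all genes. The median was 0.14 against 0.01 for all genes, and 8 of 30 genes were below 0 (48.2% of all genes). The channel median turned to -0.07 (all genes -0.02) without the 5 arrays with Nr1h3 against the label, which leaves 1 LXRα-Tg sham array. It was 0.07 without those lacking Eif2s3y, and 0.00 with median scaling, where that of all genes was -0.17. No channel gene was under an unadjusted p of 0.05 without LXRα-Tg sham replicate 2, where 4.31% of all genes were. Macrophage markers were above 0 for 0 of 8 genes (median -0.53), and liver markers for 15 of 15 (median 0.95). Their part in the channel values was not tested. Kcne4, a Kv1 and Kv7 regulator, and Kcnk3 had changes of -0.54 (SE 0.25) and 0.41 (SE 0.21) that turned to 0.09 and -0.20 on slide 1 alone. There 1 array was set against 1, and Nr1h3 on the LXRα-Tg sham array went against its label. Kcne4 was at -0.30 without the 5 arrays with Nr1h3 against the label, and Kcnk3 at 0.23 without the arrays lacking Eif2s3y.

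The TAC effects in Wt and in LXRα-Tg share no arrays, and the difference between them was tested directly. This difference equals the genotype change in TAC minus the genotype change in sham. It therefore reuses the sham arrays of the first comparison and is not independent of it. By limma no gene passed the adjusted threshold (0%), and 2 channel genes had an unadjusted p under 0.05, both higher, where 10.2% of all genes passed, 4.20% higher and 6.05% lower. Kcnip2 differed by 0.54 (SE 0.20, interval 0.11 to 0.97, limma adjusted p = 0.363), being -0.29 after TAC in Wt and 0.26 in LXRα-Tg. Between the labelled genotypes it changed by -0.57 in sham and by -0.03 in TAC. The 2 other probes of Kcnip2 differed by 0.72 and -0.04. Kcnv2 differed by 1.49 (SE 0.59, interval 0.21 to 2.77, limma adjusted p = 0.419), being -0.46 in Wt and 1.03 in LXRα-Tg. Its genotype change was -1.64 in sham and -0.15 in TAC. Next came Kcnk3 (0.58, SE 0.29) and Clcn7 (-0.46, SE 0.23). Without the arrays lacking Eif2s3y Kcnv2 differed by 0.97 and Kcnk3 by 0.22, and without the 5 arrays with Nr1h3 against the label Clcn7 by -0.21. After median scaling Kcnip2 was at 0.11, while the median of all genes moved to -0.37. The median of the 30 channel genes, 0.15, was -0.08 without the 5 arrays with Nr1h3 against the label, which leaves 1 LXRα-Tg sham array. It was -0.03 without those lacking Eif2s3y. Liver markers were above 0 for 15 of 15 genes (median 2.65) and macrophage markers for 0 of 8 (median -0.51), and their part in these values was not tested.

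The last comparison, LXRα-Tg TAC against Wt TAC, asks whether hearts labelled with the 2 genotypes differ after TAC. Nr1h3 was high on 2 of 3 LXRα-Tg TAC and 1 of 4 Wt TAC arrays. No gene passed the adjusted threshold by limma (0%), and Clcn3, an exchanger of endosomes, was the only channel gene with an unadjusted p under 0.05, where 4.72% of all genes passed, 1.86% higher and 2.86% lower. Its level was 7.91, 7.36, 7.35 and 7.36 in Wt TAC and 7.21, 6.61 and 7.18 in LXRα-Tg TAC, wholly lower (2.96% of all genes were), a change of -0.49 (SE 0.20, interval -0.93 to -0.05, limma adjusted p = 0.988). A second probe of Clcn3 gave -0.61. The Clcn3 change was -0.35 without Wt TAC replicate 1, the array at 7.91, and -0.30 without LXRα-Tg TAC replicate 2. Without either 1 of these arrays no channel gene was under an unadjusted p of 0.05, against 2.81% and 3.79% of all genes. The next genes were Kcnd2 (-0.60, SE 0.36), Cacna1g, the Cav3.1 T-type pore (0.34, SE 0.22, but -0.05 on slide 1 alone), and Kcnab1, a Kv1 beta subunit (-0.43, SE 0.25, while its other probe gave 0.24). Kcnd2 was at -1.08 and Cacna1g at 0.04 without the 5 arrays with Nr1h3 against the label, and they were at -1.0 and 0.10 without the arrays lacking Eif2s3y. Kcnip2 changed by -0.03 (interval -0.32 to 0.26), while its other probes gave 0.38 and 0.02. Kcnv2 changed by -0.15 (interval -1.02 to 0.72). No channel gene lay wholly higher (2.19% of all genes did). The median was -0.04 against -0.01 for all genes, and 18 of 30 were below 0 (51.1% of all genes). The channel median was -0.08 without the 5 arrays with Nr1h3 against the label and -0.05 without those lacking Eif2s3y. Liver markers were above 0 for 15 of 15 genes (median 1.45) and kidney markers for 8 of 9 (median 0.41), and their part in the channel values was not tested.

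**Figure D4:**
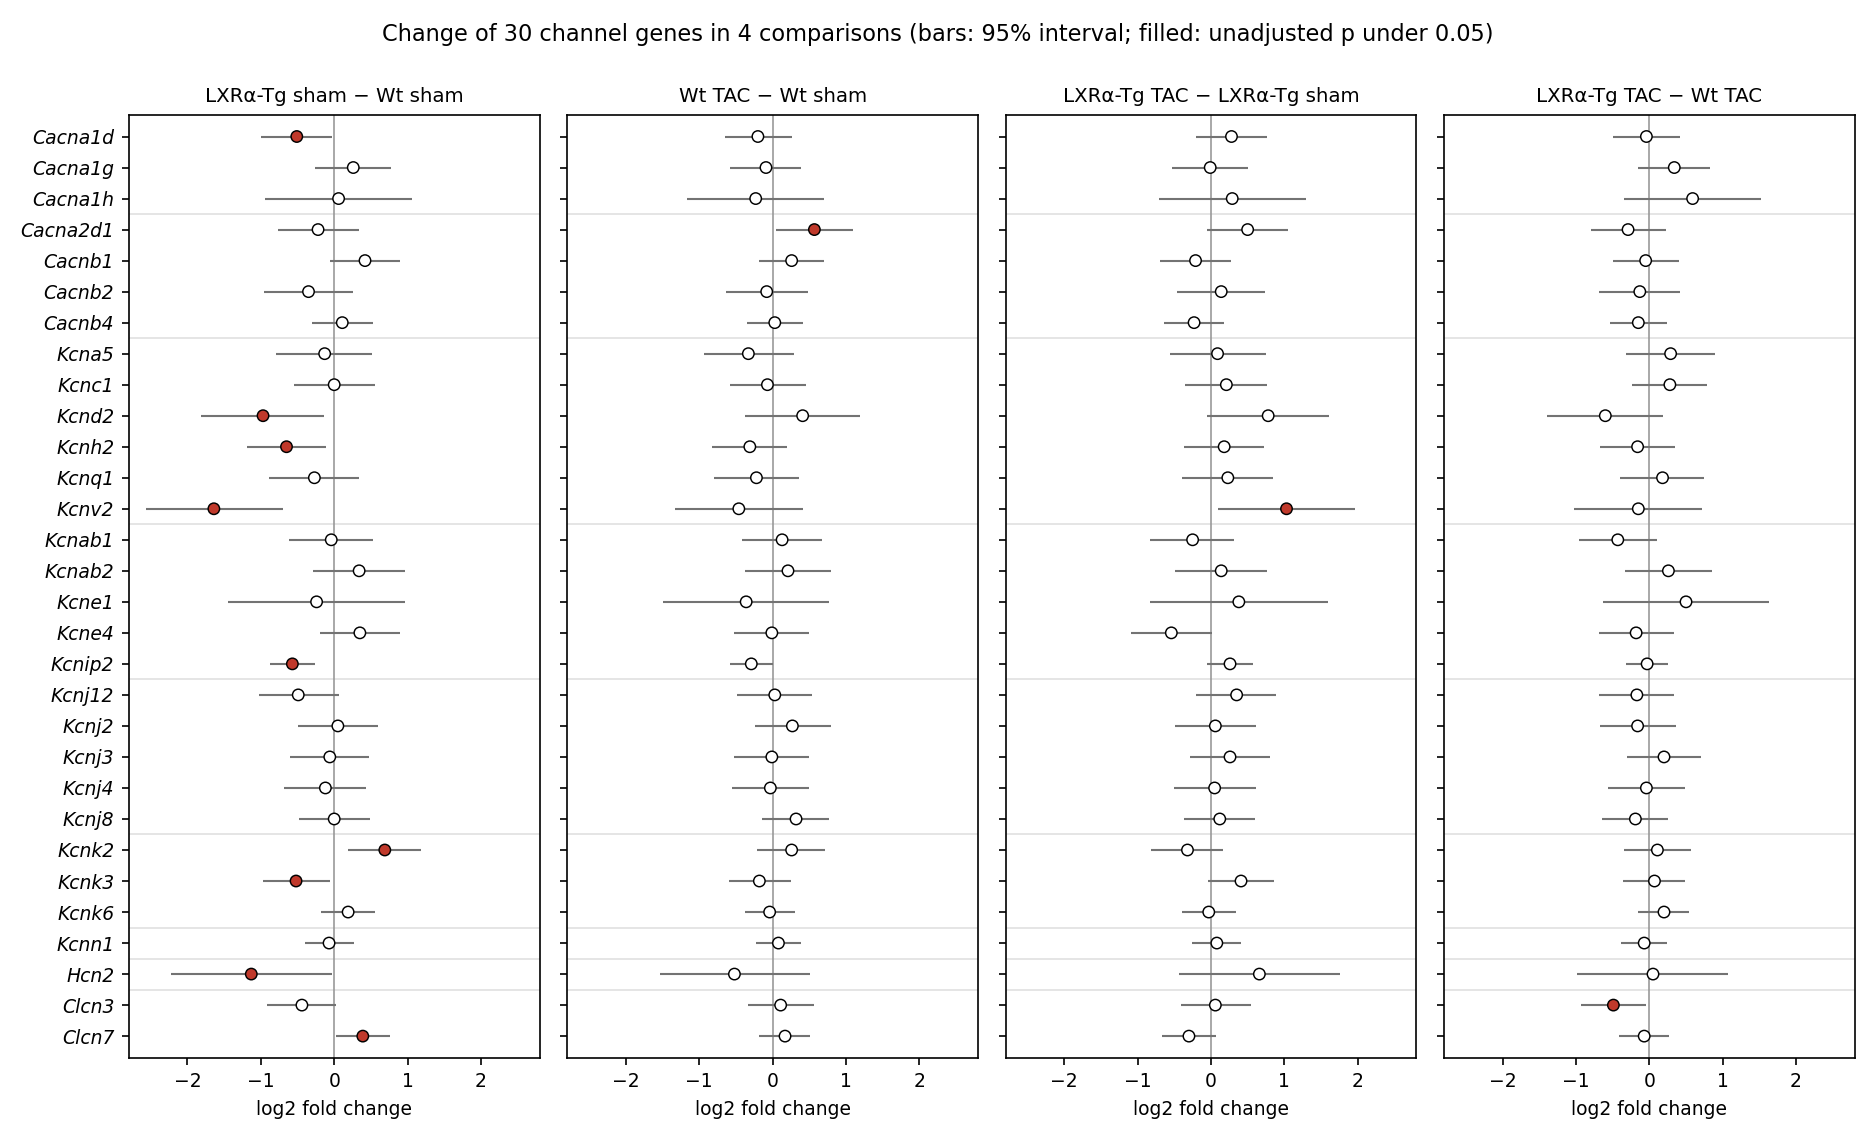
Log2 fold change (horizontal axis) of the 30 measured channel genes in 4 comparisons, with 95% intervals as bars; filled points have an unadjusted p under 0.05, and no gene passed an adjusted p of 0.05. Filled points number 9 in LXRα-Tg sham against Wt sham and 1 in each of the other comparisons.

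The genes too dim for a change in some comparisons were 4 in number. Kcnc1 was not well above background on any Wt TAC or LXRα-Tg sham array, Cacnb1 on any LXRα-Tg TAC array, and Kcnj4, like Kcnk2, on any Wt sham array. The only bound above 1.03-fold among the comparisons of these genes was that of Kcnk2 given above.

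Genes that act beside the channels were read from 3 lists, which were drawn up with earlier results known. In LXRα-Tg sham against Wt sham, 1 of 30 measured channel partners fell and 2 of 19 pumps, exchangers and gap junction genes rose, while 0 of 23 transcription regulators passed, against 1.58% of all genes. Fgf13, which binds sodium channels and sets their availability, was lower on every LXRα-Tg sham array (signal 415 to 563.5) than on the Wt sham arrays (652.7 to 854.4), a change of -0.83 (SE 0.15, limma adjusted p = 0.0207). Panx1, a large-pore membrane channel, had signals of 16.8, 29.9 and 27.4 in Wt sham and 68.4, 135.4 and 99.3 in LXRα-Tg sham, a change of 1.24 (SE 0.22, limma adjusted p = 0.0207). Fxyd5, a modulator of the sodium pump, had signals of 213.6 to 323 and 715.2 to 1166.5, a change of 1.29 (SE 0.25, limma adjusted p = 0.0294). Each of the 3 calls was lost on leaving out replicate 1 or replicate 2 of Wt sham, or replicate 2 of LXRα-Tg sham, those of Fgf13 and Fxyd5 also without LXRα-Tg sham replicate 1, and those of Panx1 and Fxyd5 without LXRα-Tg sham replicate 3 (limma adjusted p between 0.0565 and 0.151). Calls over all 7837 genes, 124 with every array, fell as well. They were 0 and 12 without replicates 1 and 2 of Wt sham, and 48, 0 and 11 without replicates 1, 2 and 3 of LXRα-Tg sham. Without the 5 arrays with Nr1h3 against the label the changes were -0.64, 1.57 and 1.35 for Fgf13, Panx1 and Fxyd5. These rest on 1 LXRα-Tg sham array. With median scaling the limma adjusted p of Fgf13 was 0.122.

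No gene of the 3 lists passed in the other comparisons. After TAC in Wt the lowest p-values were Mef2c, a cardiac transcription factor (0.70, SE 0.19), and Ppp3ca, a calcineurin subunit (0.60, SE 0.16), both with a limma adjusted p of 0.628. After TAC in LXRα-Tg they were Panx1 (-0.75, SE 0.22) and Amigo1, a Kv channel partner (0.57, SE 0.17), both at 0.536 by limma, and Amigo1 was at 0.37 without the 5 arrays with Nr1h3 against the label. Between the TAC groups they were Akap7, an anchor of protein kinase A (-0.44, SE 0.15), and Mef2c (-0.48, SE 0.19), and, comparing both TAC effects, Panx1 (-1.20, SE 0.30, limma adjusted p = 0.204) and Nkx2-5 (0.68, SE 0.20, limma adjusted p = 0.287), the latter 0.44 without the 5 arrays with Nr1h3 against the label. The median change of the partner list in the sham comparison was -0.15, of the pump list 0.03 and of the regulator list 0.07, against -0.01 for all genes.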

How the data were processed

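LV RNA of 13 arrays in 4 labelled groups was measured. The authors deposited background-subtracted probe intensity values from GenomeStudio 2011.1 (submitters' processing notes), with detection p-values, and a second table of quantile-normalized intensity values whose tool is not named in labels or methods and which served as an alternative. Here the first table was corrected and quantile-normalized with neqc (limma 3.58.1, R 4.3.3, offset 16). Probes with a detection p under 0.01 on at least 3 arrays were kept (11028), the brightest probe stood for each gene (7837), and a model of 4 group means was fitted over all 13 arrays with Benjamini-Hochberg adjustment over all genes (threshold 0.05, two-sided).

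The members and lists were chosen with earlier results of these data known. Genes named are those called, the 4 lowest p-values per comparison, a fixed panel of cardiac channels, and of the partner lists those called and the 2 lowest p-values. The 4 Wt TAC arrays were all used, although the series record speaks of 3 per group. Per array 9454 to 10392 probes were detected, and the number of arrays limits the precision. In simulated data a change of 1 on the log2 scale was recovered for 76% of genes in LXRα-Tg sham against Wt sham and a change of 0.5 for 19%, each over 7837 genes. The simulated noise was independent between genes and arrays. It held none of the Nr1h3, Eif2s3y, liver, kidney or slide differences between arrays, so these shares do not give the recovery in the real data. Alternatives covered background, normalization, filter, slide, probes, weights, groups fitted, the methods' tests, doubted arrays and each array left out. Platform symbols were given for 23978 probes and none for 1719. Figures were drawn with matplotlib 3.10.9.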

Additional observations from a re-analysis of the deposited data

Results flagged for a closer look

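Among the 30 channel genes, 2 had 1 Wt TAC array far from the other 3, which were close together. Clcn3 was at 7.91 on Wt TAC replicate 1 and between 7.35 and 7.36 on the others. Hcn2 was at 6.70 on Wt TAC replicate 2, an array with high Nr1h3 against its label, and between 7.04 and 7.06 on the others. Chance alone gives such a gap in about 1 of 20 groups.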

How the results depend on the processing

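No paired analysis was possible because the labels carry no replicate numbers; those used are running numbers. The count of channel genes called stayed at 0 in 4 comparisons under all alternatives run. In LXRα-Tg sham against Wt sham it was 2 with array weights, where 475 of 7837 genes passed. These 2 were Kcnip2 (limma adjusted p = 0.024) and Kcnv2 (limma adjusted p = 0.0192). The count ranged from 0 to 1 when single arrays were left out. Kcnip2 passed without Wt TAC replicate 3, where 90 of 7837 genes did, and Kcnv2 without Wt sham replicate 3, where 99 did. The methods' t-test, which the paper names as paired, was run unpaired. It put 6 channel genes under its threshold in that comparison, where 13.2% of all genes were. The methods' Bonferroni comparison put 2 under it, where 6.66% of all genes were. After Benjamini-Hochberg 0 channel genes and 0 of all genes were left by either test. The count of channel genes lower at an unadjusted p, 7, was 2 without Wt sham replicate 1, 4 without any 1 of the 3 LXRα-Tg sham arrays and 4 without the arrays lacking Eif2s3y. Of all genes 11.3%, 11.1% to 16% and 11.6% then passed in either direction, against 16.1% with every array. Removing the arrays with Nr1h3 against the label, or using either slide alone, leaves 1 array in a sham group, so no count is given there. Median scaling moved the median of all genes to 0.15, 0.19, -0.17, -0.20 and -0.37 for the comparison of the labelled genotypes in sham, that of TAC with sham in Wt, the same in LXRα-Tg, that of the genotypes in TAC and the contrast of both TAC effects. The channel medians were then 0.00, 0.07, 0.00, -0.19 and -0.09, and higher against lower at an unadjusted p 2 and 1, 2 and 0, 0 and 2, 0 and 3, and 0 and 1. In the same order, 16.6%, 12.3%, 10.1%, 9.79% and 20.9% of all genes passed in either direction. Under median scaling Kcnip2 changed by -0.36 and Kcnv2 by -1.47 in the sham comparison, and Panx1 passed for the difference of the TAC effects (-1.52, limma adjusted p = 0.0284). On slide 1 alone, with 1 array in each LXRα-Tg group, directions turned for Kcne4 (0.09) and Kcnk3 (-0.20) after TAC in LXRα-Tg. They also turned there for Cacna1g (-0.05) between the TAC groups. The cause of these moves was not tested.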

Other observations

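On the 2 arrays without Eif2s3y, Wt sham replicate 1 and LXRα-Tg TAC replicate 3, 6 of the 30 channel genes had their 2 highest levels of the series (Cacna1g, Hcn2, Kcne1, Kcnh2, Kcnk3 and Kcnq1), which is 20.0% of them, against 2.26% of 7837 genes. Hcn2 was at 8.75 and 7.99 on these arrays and at 7.30 or less on the other 11. Kcnk3 was at 9.46 and 9.35 and at 9.10 or less elsewhere. Kcnh2 was at 8.44 and 8.37 against at most 8.25, and Kcne1 at 8.55 and 8.44 against at most 8.31. The pattern joins arrays labelled with both genotypes and both operations. Nr1h3 was low on both arrays (166.2 and 290.4), which on LXRα-Tg TAC replicate 3 goes against the label. The pattern was seen after the values were known, so it has no test. The Xist signal was 32 and 24.8 on these arrays and at most 7.1 on the others. The lowest 2 levels fell on the same arrays for 1 channel gene (3.33%) and 1.82% of all genes.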
